A study of Zea mays with 6 samples.

Results

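WRKY transcription factors are described here in the early ear of maize. The family was taken as every gene whose annotation in the count table lists the WRKY DNA-binding domain, Pfam PF03106, which gave 128 of 42508 genes. RNA came from ear primordia of 1.5 to 2.0 mm, from plants at leaf stages V6 to V9, with the cells labelled as inflorescence and spikelet pair meristem. Nearly isogenic recombinant inbred lines from a teosinte by maize cross were compared under standard growth conditions. A12 has the teosinte form of the kernel row number locus qKRN5.04b on chromosome 5, and B46 has the maize form. Each genotype is represented by 1 line, with 3 libraries per line, and each library pools at least 50 ears, so that p-values measure the spread between pools.

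WRKY factors are a plant family named for a conserved stretch of amino acids at the start of a zinc-binding domain that contacts the W-box element in gene promoters. Many members are switched on within minutes by wounding, pathogens or kinase cascades, and they act on one another's promoters. Others work in development, among them in seeds, trichomes, stems and flowering. The family is divided into structural subgroups by the number of WRKY domains and the type of zinc finger: group I has a domain at each end, group II is split into IIa to IIe, and group III has a different zinc finger. The files give no maize WRKY names, so each gene is called here by its identifier and its best Swiss-Prot match. The subgroup is that of the matched Arabidopsis or rice protein, or IId where the annotation lists the plant zinc cluster domain PF10533. Genes matched to rice WRKY19, barley SUSIBA2, tomato proteins or no WRKY protein were given no subgroup, so subgroup counts and shares leave them out. The subgroup is not a phylogeny of the maize genes. Subgroups, gene roles and copies are thus known by similarity only.

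Total gene counts were 14625831 to 15675012 per library. WRKY genes took 13247, 13358 and 14399 reads in B46 replicates 1, 2 and 3, and 12867, 13447 and 14333 in A12 replicates 1, 2 and 3, so the family's total overlapped between lines. The genes taken here as ear meristem markers, KNOTTED 1, THICK TASSEL DWARF 1 and FASCIATED EAR 2, were detected in all libraries. Their summed level was 630 to 858 CPM (read counts scaled to library size, with TMM factors) in B46 and 445 to 775 in A12. Floral MADS-box genes were near 0 in B46 and present in A12. Their 9 genes summed to 0.0655, 4.08 and 0 CPM in B46 and to 738, 126 and 303 in A12. With edgeR at an adjusted p under 0.05, 8 of 8 tested were higher in A12, against 4.61% of all genes tested.

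Of the 128 WRKY genes, 62 passed the default edgeR expression filter, 42 had at least 1 read but did not pass, and 24 had 0 reads in every library. A count of 0 allows up to 3 reads in a library, or 0.209 CPM, by counting error alone. The filter kept genes with totals as low as 70 reads over the 6 libraries. The highest total left out was 178 reads, of Zm00004b024254, whose reads lay mostly in B46 replicate 3. A mean level of at least 1 FPKM (fragments scaled by transcript length and library depth) was reached by 58 genes, at least 5 FPKM by 27 and at least 10 FPKM by 16.

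Group IId had the largest share of the family's level in the ear. Its 12 members held 43.6% of the summed mean FPKM of WRKY genes. Group I, with 19 members, held 15.3%, group III 9.16%, IIc 6.75%, IIe 5.36% and IIa 1.9%. The 9 IIb members held 0.0734%, and none of them passed the expression filter. A further 23 genes were given no subgroup and held 17.9%, among them 9 matched to rice WRKY19 and 3 matched to barley SUSIBA2. The shares of the named subgroups may thus be larger.

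The highest gene was Zm00004b040237, matched to rice WRKY51, a group IId factor that takes part in repressing gibberellin responses in rice aleurone. Its FPKM was 57.7, 62.8 and 64.9 in the B46 libraries and 57, 73.1 and 73.4 in A12. All 6 values lay above those of every other member, and the lines overlapped. Next came Zm00004b005079, matched to maize WRKY1, at 41.4, 39.8 and 37.5 FPKM in B46 and 32.3, 38.9 and 39.7 in A12. It overlapped in A12, and not in B46, with the next gene, Zm00004b006387, which had 27.9, 28 and 24.2 FPKM in B46 and 38.8, 37.8 and 40.1 in A12.

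The next 4 genes in the order of mean FPKM overlapped with their neighbours over the libraries. Zm00004b007182, matched to Arabidopsis WRKY34, a group I regulator of pollen development, had 29.9, 23.6 and 15.8 FPKM in B46 and 29.1, 23.7 and 22.3 in A12. Zm00004b009785, matched to barley SUSIBA2, a factor in sugar signalling, had 21.9, 19 and 23.9 in B46 and 24.2, 29.7 and 25.5 in A12. Zm00004b038064 followed at a mean of 22.8 FPKM and the IId gene Zm00004b007779 at 21.3 FPKM. The last of the 8 highest, the IId gene Zm00004b004570 at a mean of 15.7 FPKM, stayed below Zm00004b007779 in every library. Of these 8, only Zm00004b006387 and Zm00004b038064 passed the test between lines with edgeR.

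**Figure D1:**
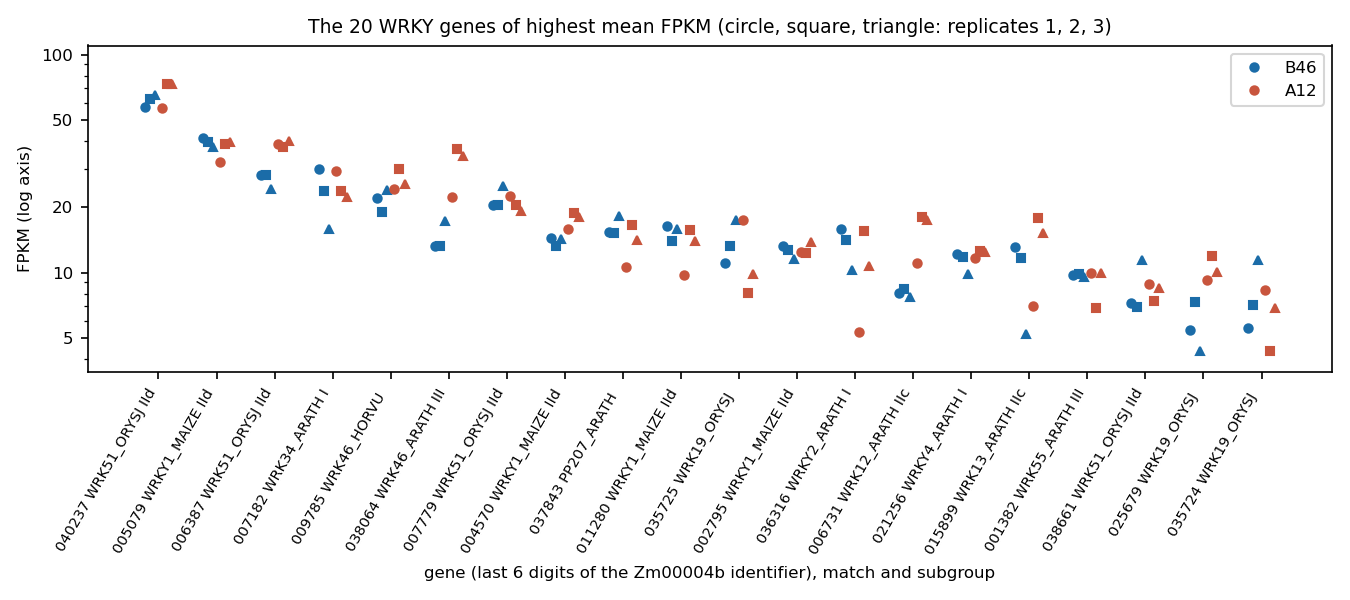
FPKM on a log axis of the 20 WRKY genes with the highest mean, 1 point per library, B46 in blue and A12 in red. Zm00004b040237 stands above the rest in all 6 libraries, from 57 to 73.4 FPKM.

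The comparison of A12 with B46 asks which WRKY genes differ between the lines. As each form of the locus is carried by a single line, the locus cannot be told apart from other differences between the lines. With edgeR's quasi-likelihood test and an adjusted p under 0.05 over all genes tested, 8 of 62 WRKY genes were called, 5 higher and 3 lower in A12. That is 12.9%, against 9.86% of the 22741 genes tested, so the family was called at a rate near the background. Over all genes, 4.61% were called higher and 5.25% lower. An unadjusted p under 0.05 was reached by 21 of the 62 WRKY genes and by 27.2% of all genes. Without overlap of A12 and B46 were 19 WRKY genes, or 30.6%, against 33.4% of all genes. The median log2 ratio, A12 over B46, was -0.08 over WRKY genes and 0.01 over all genes, with 27 WRKY genes above 0 and 35 below. In pooled tissue, fewer cells of a type and less RNA per cell cannot be told apart. The lines also differed in floral MADS-box genes, and the part of this difference in the WRKY calls was not tested.

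The number of calls rested on single libraries. Leaving out B46 replicate 1, 2 or 3 gave 5, 4 and 7 WRKY calls, with 3.07%, 1.86% and 6.09% of all genes called. Leaving out A12 replicate 1, 2 or 3 gave 11, 8 and 3 WRKY calls, with 19.3%, 9.41% and 1.73% of all genes. DESeq2 called 15 of 75 WRKY genes, or 20%, against 14% of all genes. Without both B46 replicate 3 and A12 replicate 1, libraries that stood apart from the others of their line in the gene groups described below, 19 of 58 WRKY genes were called, or 32.8%, against 30.9% of all genes. This last selection was made after the values were seen.

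**Figure D2:**
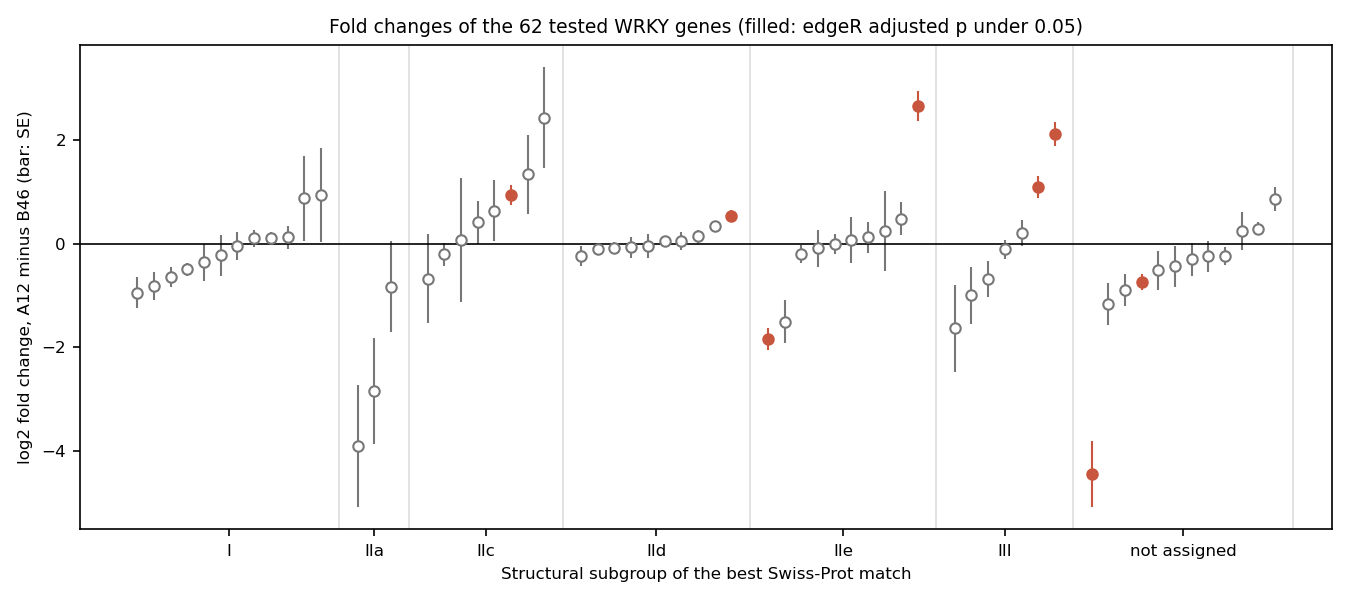
Log2 fold change, A12 minus B46, with its SE for the 62 tested WRKY genes, by subgroup of the best match; filled points passed an edgeR adjusted p under 0.05. The IId genes lie close to 0, from -0.24 to 0.54, and SEs of the IIa genes run from 0.88 to 1.18.

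Among the genes that rose, Zm00004b006430 changed most. It is matched to Arabidopsis WRKY35 of group IIe and lies on chromosome 2 from 12885758 to 12889257. It was counted at 39, 29 and 32 reads in the B46 pools against 131, 220 and 257 in the A12 pools. All A12 libraries lay above all B46 libraries, and A12 replicate 1 was the lowest of its line. The mean went from 2.16 ± 0.361 to 13.6 ± 4.13 CPM (SD, n = 3), a log2 ratio of 2.66 (SE 0.29, adjusted p by edgeR 0.0035). The other tested genes with this match did not pass. Zm00004b005806 had a log2 ratio of 0.12 (SE 0.30), Zm00004b014811 of 0.24 (SE 0.77) and Zm00004b027131 of -1.51 (SE 0.41, adjusted p by edgeR 0.059).

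Zm00004b026476, on chromosome 8 from 122342374 to 122345247, is matched to Arabidopsis WRKY62, a group III factor that restrains basal defence together with WRKY38. It was counted at 22, 19 and 20 reads in the B46 pools against 79, 80 and 97 in the A12 pools, with little spread in either line. It rose from 1.31 ± 0.116 to 5.75 ± 0.481 CPM (SD, n = 3), a log2 ratio of 2.12 with SE 0.23 and an adjusted p of 0.0035 by edgeR. Its neighbour Zm00004b026477, 62787 bases away and matched to Arabidopsis WRKY54, had between 0 and 5 reads per library. The WRKY38 match that was tested, Zm00004b037847, had a log2 ratio of -0.69 (SE 0.35, adjusted p by edgeR 0.26).

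A second group III gene, Zm00004b038064 (chromosome 10, 10721102 to 10723070), is matched to Arabidopsis WRKY46, which acts in basal defence and in osmotic stress. Its counts were 354, 360 and 467 in B46 and 565, 918 and 924 in A12. The lines did not overlap, and A12 replicate 1 was again the lowest of its line. The mean rose from 25.4 ± 4.10 to 54.1 ± 13.7 CPM (SD, n = 3), a log2 ratio of 1.09 with SE 0.21 and an adjusted p of 0.022 by edgeR. Of the 7 tested genes assigned to group III, 2 rose and the other 5 did not pass, and the median log2 ratio was -0.11. Over all genes tested, 4.61% were called higher.

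Zm00004b006731 (chromosome 2, 22439130 to 22444138) is matched to Arabidopsis WRKY12, which restrains secondary wall formation in the pith and promotes flowering. It was counted at 176, 188 and 170 reads in the B46 pools against 231, 366 and 387 in the A12 pools, and rose from 11.5 ± 0.502 to 22.1 ± 5.51 CPM (SD, n = 3), a log2 ratio of 0.94 with SE 0.20 and an adjusted p of 0.028 by edgeR. Zm00004b014571 has the same match at lower counts, 5, 9 and 25 in B46 and 13, 20 and 25 in A12 (log2 ratio 0.63 with SE 0.59, adjusted p by edgeR 0.54). Arabidopsis WRKY13 has a stem and flowering role opposed in part to that of WRKY12. Its match Zm00004b015899 was counted at 243, 222 and 98 reads in the B46 pools against 124, 310 and 284 in the A12 pools, so that 1 library of each line stood low and the lines overlapped (log2 ratio 0.41 with SE 0.42, adjusted p by edgeR 0.57).

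The smallest rise was that of an abundant gene. Zm00004b006387 (chromosome 2, 11887281 to 11888878), matched to rice WRKY51, was counted at 583, 599 and 512 reads in the B46 pools against 774, 741 and 847 in the A12 pools. Its level rose from 36.5 ± 2.95 to 53.1 ± 1.72 CPM (SD, n = 3), a log2 ratio of 0.54 with SE 0.10 and an adjusted p of 0.017 by edgeR. It was the only IId gene of 10 tested that passed with edgeR. The other IId genes had log2 ratios between -0.24 and 0.33, and 5 of the 10 were above 0.

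Of the 3 genes that fell, Zm00004b018619 had the largest change. It has no Swiss-Prot match and lies on chromosome 3 from 189565150 to 189569361. It had 35, 55 and 124 reads in B46, highest in replicate 3, and 2, 4 and 3 in A12. The mean was 4.60 ± 3.01 CPM in B46 and 0.203 ± 0.0714 in A12 (SD, n = 3; log2 ratio -4.45 with SE 0.63, adjusted p by edgeR 0.0080). It belongs to a run of 4 WRKY genes on this chromosome. The neighbour Zm00004b018618, 27570 bases away and matched to Arabidopsis WRKY66 of group III, was counted at 27, 47 and 106 reads in the B46 pools against 16, 29 and 41 in the A12 pools. Its lines overlapped (log2 ratio -1.0 with SE 0.55, adjusted p by edgeR 0.28), and in B46 the same library was highest as for Zm00004b018619. The other 2 of the run, Zm00004b018620 and Zm00004b018623, had 1 and 5 reads over all libraries. Reads of similar copies can be split between neighbours by the counting, and whether this was so here was not tested.

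Zm00004b028243 (chromosome 8, 180889186 to 180890900), matched to Arabidopsis WRKY69 of group IIe, was counted at 144, 124 and 119 reads in the B46 pools against 39, 28 and 36 in the A12 pools. It fell from 8.34 ± 0.948 to 2.31 ± 0.356 CPM (SD, n = 3), a log2 ratio of -1.85 with SE 0.21 and an adjusted p of 0.0043 by edgeR. Zm00004b018991 has the same match and similar counts in B46 (87, 113 and 98), and in A12 its counts were 138, 47 and 83, on both sides of those of B46 (log2 ratio -0.09 with SE 0.36, adjusted p by edgeR 0.90). Whether the 2 genes differ in their response was not tested. In group IIe as a whole, 1 of 10 tested genes rose and 1 fell. Over all genes tested, 4.61% were called higher and 5.25% lower.

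The last called gene has a best match that is not a WRKY protein. Zm00004b038592 (chromosome 10, 61122263 to 61130222) carries the WRKY domain beside a domain of unknown function, and its best match is HPCA1, a hydrogen peroxide sensing receptor kinase of Arabidopsis. It was counted at 334, 412 and 405 reads in the B46 pools against 178, 253 and 227 in the A12 pools, without overlap. It fell from 24.8 ± 2.51 to 14.8 ± 2.74 CPM (SD, n = 3), a log2 ratio of -0.74 with SE 0.16 and an adjusted p of 0.032 by edgeR. The other member whose match is not a WRKY protein is Zm00004b037843, with pentatricopeptide repeats beside the domain, at 63.5 ± 6.65 CPM in B46 and 53.7 ± 11.7 in A12 (edgeR adjusted p = 0.40).

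**Figure D3:**
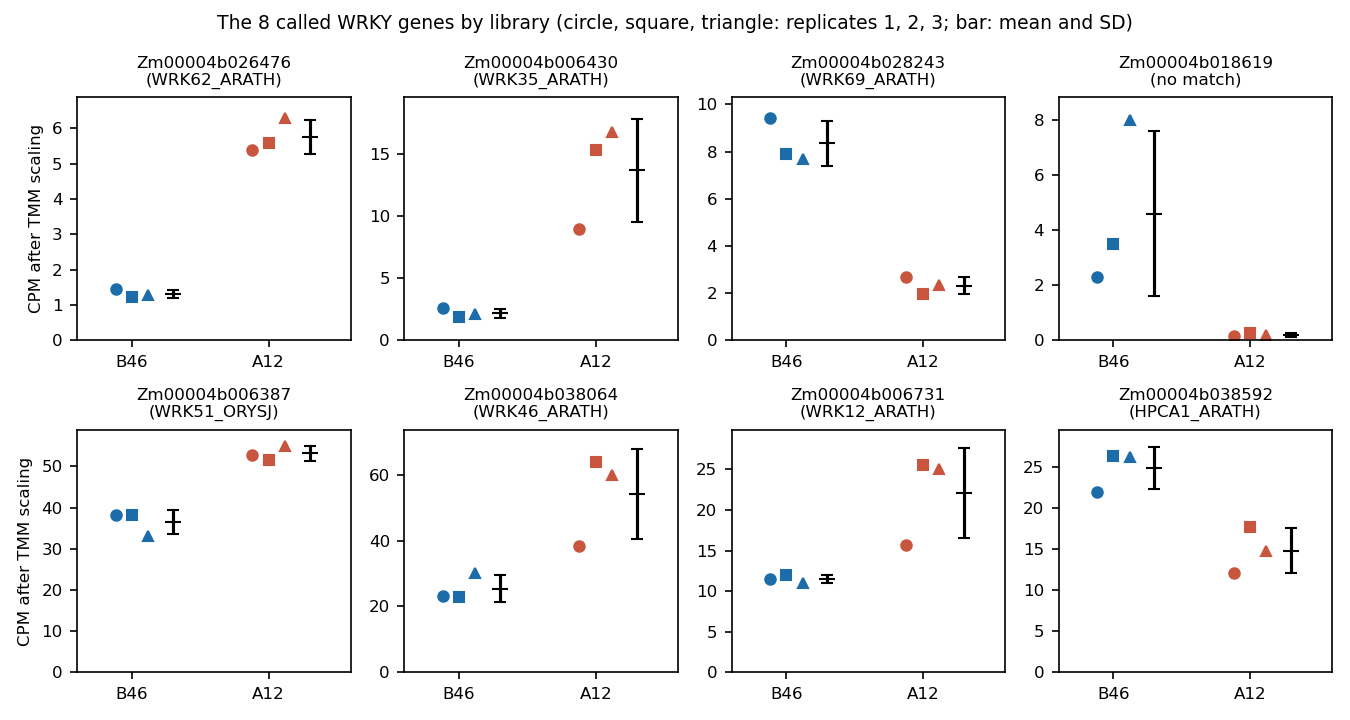
CPM after TMM scaling of the 8 called WRKY genes, 1 point per library (circle, square and triangle for replicates 1, 2 and 3), with the mean and SD beside each line. In every panel all A12 points lie on the same side of all B46 points. A12 replicate 1 is the lowest A12 point in every panel except those of Zm00004b006387 and Zm00004b028243.

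The calls differed in how they held. Zm00004b006430, Zm00004b026476 and Zm00004b028243 were called in all 15 alternative analyses. Zm00004b018619 was lost without A12 replicate 3 (edgeR adjusted p = 0.057). The remaining 4 were each lost on leaving out the first or second B46 library or A12 replicate 3, with highest edgeR adjusted p of 0.091 for Zm00004b006387, 0.11 for Zm00004b038064, 0.12 for Zm00004b006731 and 0.14 for Zm00004b038592. Without B46 replicate 3, Zm00004b006731 and Zm00004b038592 also missed the threshold, and so did Zm00004b006731 without A12 replicate 2.

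Differences between libraries of the same line were wide in a few WRKY genes. On the log2(CPM + 1) scale, the range over the 3 libraries was at least 2 for 3 of 62 WRKY genes in B46, or 4.84%, and for 3 other genes in A12, again 4.84%. Over all genes tested the share was 0.413% in B46 and 1.62% in A12. WRKY genes were lower than the average gene, with a median of 5.67 against 19.2 CPM, and the part of count level in these ranges was not tested. All 3 in B46 are IIa genes, and these are the only IIa genes that were tested.

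Group IIa factors of rice, such as WRKY71, WRKY76, WRKY28 and WRKY62, are rapidly induced by wounding and pathogens and mostly restrain defence. Of the 7 IIa genes here, Zm00004b013069 on chromosome 5 (95300965 to 95302885), matched to WRKY71, was counted at 12, 80 and 369 reads in the B46 pools against 18, 5 and 6 in the A12 pools. B46 replicate 3 was thus 30.3 times B46 replicate 1 in CPM, and the lines overlapped. For Zm00004b035987, matched to WRKY76, B46 counts were 10, 60 and 254 and A12 counts 51, 52 and 72, so that the highest and lowest CPM were 25.1-fold apart within B46 and 1.34-fold within A12. Zm00004b029470, matched to WRKY28, was counted at 9, 28 and 116 reads in the B46 pools against 12, 1 and 7 in the A12 pools.

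The 4 IIa genes that did not pass the expression filter had the same highest library in B46. Zm00004b024254 had 5, 26 and 136 reads there and 9, 0 and 2 in A12. Zm00004b009004 had 0, 6 and 27 against 5, 7 and 2, Zm00004b033076 had 0, 2 and 15 against 1, 0 and 0, and Zm00004b035989 had 0, 1 and 5 against 2, 1 and 1. Summed over the 7 genes, group IIa was at 2.36, 12.9 and 59.6 CPM in B46 replicates 1, 2 and 3, and at 6.68, 4.59 and 5.84 CPM in A12. Every A12 value thus lay between the lowest and the next B46 value.

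None of the 3 tested IIa genes was called by edgeR, though 2 had an unadjusted p under 0.05 and DESeq2 called those 2 (Zm00004b013069, adjusted p = 0.022; Zm00004b029470, adjusted p = 0.026). The edgeR log2 ratio of Zm00004b013069 was -3.91 (SE 1.18, adjusted p = 0.081). Without B46 replicate 3 it was -2.16 (edgeR adjusted p = 0.20), and without B46 replicate 1 it was -4.45 (edgeR adjusted p = 0.042). With B46 replicate 3 and A12 replicate 1 both left out it was -2.98 and was called (edgeR adjusted p = 0.022). For Zm00004b029470 the log2 ratio was -2.85 (SE 1.03, adjusted p by edgeR 0.13), and it was -1.39 without B46 replicate 3. Zm00004b035987 had -0.83 (SE 0.88, adjusted p by edgeR 0.59).

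Marker lists of wounding and of heat or handling stress were, like the IIa genes, highest in B46 replicate 3 within B46. Small heat shock proteins, 41 genes of which 6 had 0 reads throughout, summed to 130, 214 and 546 CPM in B46 replicates 1, 2 and 3 and to 77.6, 84.0 and 91.3 in A12, and 15 of the 18 tested were highest in B46 replicate 3 within that line. Lipoxygenases, enzymes on the way to jasmonate, summed to 488, 613 and 1266 CPM in B46 and 733, 247 and 374 in A12, and 10 of 10 tested were highest in B46 replicate 3 within the line. TIFY-domain proteins, which include the jasmonate repressors, were at 662, 668 and 784 CPM in B46 and 772, 618 and 659 in A12. Between lines, 1 of 18 tested small heat shock genes rose and 1 fell, and 2 of 10 tested lipoxygenases fell with edgeR. That is 11.1% and 20% called, against 9.86% of all genes. Of 14 TIFY genes, 0 were called by edgeR or DESeq2, with 1 at an unadjusted p under 0.05. Lists tied to defence were often highest in B46 replicate 3 too: 18 of 25 pathogenesis-related, 9 of 12 salicylic acid regulator and 7 of 8 phenylalanine ammonia-lyase domain genes. Other lists had 30 of 59 kinase cascade, 12 of 29 VQ-motif, 3 of 10 calmodulin-binding protein 60 and 2 of 6 diterpenoid genes highest there. Over all genes tested, 40.8% were highest in B46 replicate 3 within the line, and over WRKY genes 45.2%. The part of these responses in the IIa values was not tested.

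In A12 another set of WRKY genes differed between libraries. Zm00004b026293, matched to rice WRKY24, a group I repressor of hormone responses in aleurone, was counted at 484, 27 and 142 reads in the A12 pools against 98, 101 and 175 in the B46 pools. Replicate 1 of A12 was the highest library and replicate 2 the lowest, 17.6-fold apart in CPM. A second WRKY24 match, Zm00004b030457, was counted at 104, 3 and 44 reads in the A12 pools against 18, 22 and 42 in the B46 pools, a 34-fold span in CPM within A12. Both overlapped between lines, with log2 ratios of 0.87 (SE 0.82) and 0.94 (SE 0.91; edgeR adjusted p = 0.54 and 0.55). Without A12 replicate 1 the sign turned, to -0.53 and -0.19.

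Genes matched to Arabidopsis WRKY28 and WRKY71 had the same highest library. WRKY71 of Arabidopsis, a group IIc factor, promotes shoot branching and flowering, and WRKY28 acts in salicylic acid synthesis. Zm00004b027137, the tested WRKY28 match, was counted at 5, 9 and 12 reads in the B46 pools against 103, 5 and 27 in the A12 pools (log2 ratio 2.43 with SE 0.97, adjusted p by edgeR 0.16). Zm00004b027223, the tested WRKY71 match, was counted at 10, 14 and 11 reads in the B46 pools against 63, 8 and 14 in the A12 pools (log2 ratio 1.34 with SE 0.76, adjusted p by edgeR 0.30). These genes are shown because their values stood apart in A12 replicate 1.

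The order of the A12 libraries in these genes, replicate 1 highest and replicate 2 lowest, was also that of several lists of other genes. The floral MADS-box genes summed to 738, 126 and 303 CPM in A12 replicates 1, 2 and 3, and 8 of 8 tested were highest in replicate 1. Chlorophyll a-b binding proteins, 34 genes of which 4 had 0 reads throughout, summed to 599, 149 and 262 CPM in A12 and to 167, 187 and 259 in B46, and 24 of 25 tested were highest in A12 replicate 1 within that line. Lipoxygenases (733, 247 and 374 CPM), TIFY proteins (772, 618 and 659 CPM) and genes with the phenylalanine ammonia-lyase domain (627, 262 and 349 CPM) had the same order in A12. Calmodulin-binding protein 60 genes had it too (470, 340 and 363 CPM). Summed CPM was instead lowest in replicate 1 for small heat shock proteins (77.6, 84.0 and 91.3) and diterpenoid enzymes (219, 259 and 242). Pathogenesis-related proteins were also lowest there (1528, 1715 and 1698). VQ-motif proteins and salicylic acid regulators were highest in replicate 3, and kinase cascade genes were lowest in it. The ear meristem markers were lowest in A12 replicate 1, at 445 CPM against 775 and 678. Over all genes tested, 41.5% were highest in A12 replicate 1 within A12, and over WRKY genes 40.3%. B46 replicate 3 also stood apart in the ear meristem marker and chlorophyll a-b binding lists. The ear meristem markers were at 858, 809 and 630 CPM in B46, lowest in replicate 3. Of the 25 tested chlorophyll a-b binding genes, 16 were highest in B46 replicate 3 within B46, against 40.8% of all genes. The part of these genes' tissues or responses in the WRKY values was not tested.

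**Figure D4:**
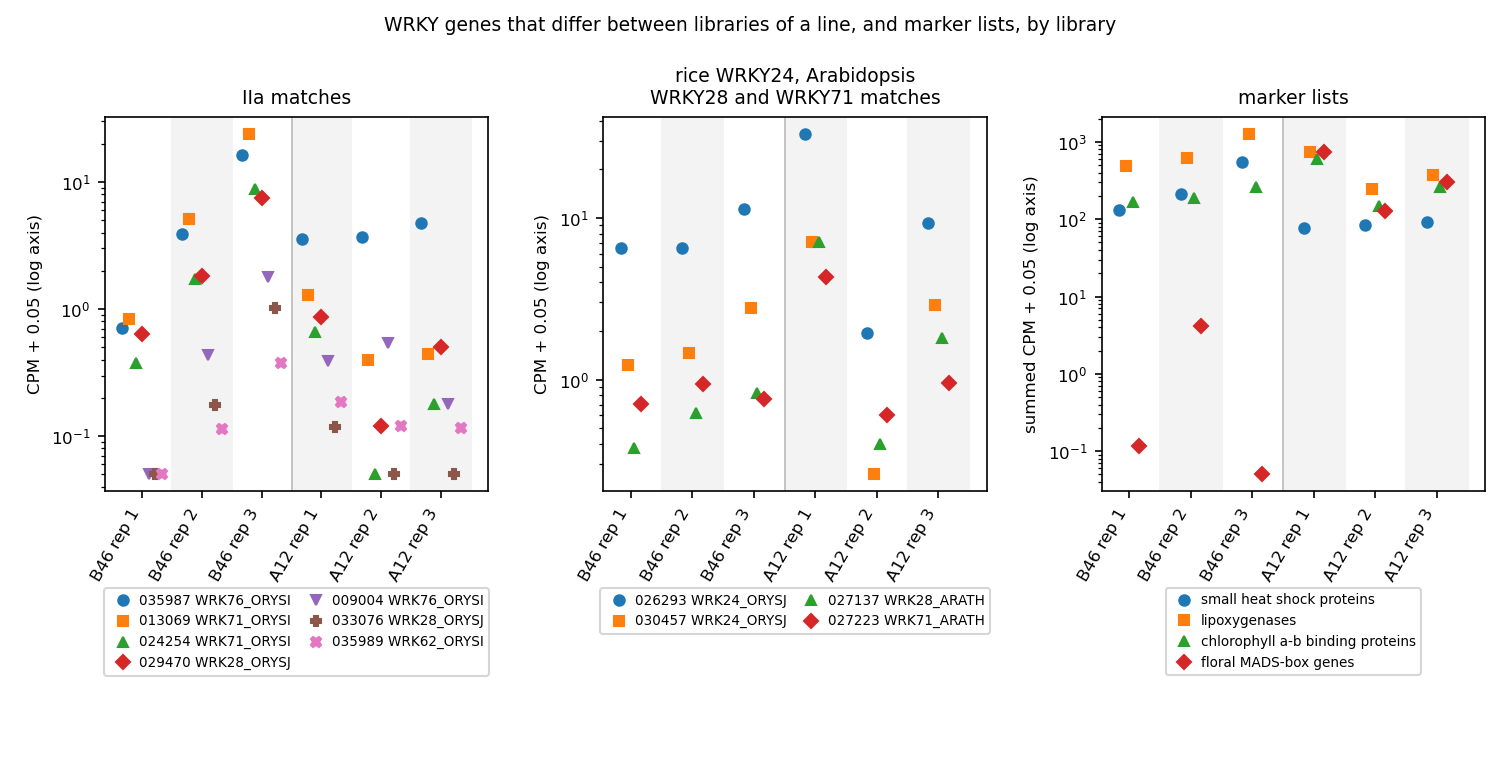
CPM plus 0.05 on a log axis, by library, for the 7 IIa genes (left), the 4 tested genes matched to rice WRKY24, Arabidopsis WRKY28 and Arabidopsis WRKY71 (middle) and the summed CPM of 4 marker lists (right). The IIa genes are highest in B46 replicate 3, and the genes of the middle panel are highest in A12 replicate 1.

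Among the other genes that did not pass was Zm00004b025679, matched to rice WRKY19. It was counted at 85, 117 and 69 reads in the B46 pools against 138, 174 and 159 in the A12 pools, without overlap (log2 ratio 0.86 with SE 0.23, adjusted p by edgeR 0.054). It was called in 5 of 15 alternative analyses: by DESeq2 (adjusted p = 0.016), by limma with the mean FPKM filter (adjusted p = 0.047 and 0.046 with pseudocounts of 0.1 and 1), without A12 replicate 1 (edgeR adjusted p = 0.031) and without that library and B46 replicate 3 (edgeR adjusted p = 0.015). Of 9 WRKY19 matches 6 were tested, of which 0 were called by edgeR, 2 had an unadjusted p under 0.05 and 1, Zm00004b025679, was called by DESeq2. In group I, 4 of 12 tested genes had an unadjusted p under 0.05, 0 passed adjustment with edgeR and 1 was called by DESeq2. The 3 matches of Arabidopsis WRKY2, a group I factor of pollen and embryo polarity, had negative log2 ratios of -0.95 (Zm00004b023521, SE 0.30), -0.50 (Zm00004b009212, SE 0.13) and -0.36 (Zm00004b036316, SE 0.36), with edgeR adjusted p of 0.091, 0.053 and 0.57.

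WRKY genes lie on all 10 chromosomes, with the most on chromosome 8 (25) and chromosome 3 (22). Of the called genes, 3 of those that rose are on chromosome 2, which holds 8 tested members. They start at 11887281, 12885758 and 22439130. Over all genes tested, 4.61% were called higher, and the share for all chromosome 2 genes was not computed. Chromosome 5, where the lines differ by design, holds 9 WRKY genes, 6 of them tested. Of these, 0 were called by edgeR, 1 had an unadjusted p under 0.05, and DESeq2 called 1. In both cases this was Zm00004b013069, the IIa gene described above. It was highest in B46 replicate 3, and its lines overlapped. Of the 2 stretches of chromosome 5 that earlier results of these data had set apart, the long one holds 1 WRKY gene, Zm00004b013777 (162666083 to 162667380), matched to rice WRKY51. It was counted at 1, 0 and 4 reads in the B46 pools against 3, 0 and 2 in the A12 pools, too few for a test. The short stretch at the start of the chromosome holds 0 WRKY genes.

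Lists of the kinds of genes known as partners, upstream kinases and targets of WRKY factors were called at 0% to 20% each, against 9.86% of all genes. They were drawn by domain or name, and whether WRKY genes act on them here was not tested. Of 29 tested VQ-motif proteins, small nuclear partners that bind WRKY domains, 1 rose and 1 fell. Zm00004b006133 rose from 16.4 ± 2.03 to 29.4 ± 5.79 CPM (SD, n = 3; edgeR adjusted p = 0.025). Zm00004b033004, matched to VQ protein 25, was counted at 14, 13 and 13 reads in the B46 pools against 1, 2 and 0 in the A12 pools (edgeR adjusted p = 0.023). In the mitogen-activated protein kinase cascade, which phosphorylates WRKY factors, 1 of 59 rose and 3 fell. The lowest adjusted p there was that of Zm00004b014053, a kinase kinase kinase 3 match on chromosome 5, at 133, 165 and 152 reads in the B46 pools against 4, 5 and 1 in the A12 pools (edgeR adjusted p = 0.00085). Next was Zm00004b027329, a kinase kinase kinase 17 match, at 57, 57 and 56 reads in the B46 pools against 8, 6 and 18 in the A12 pools (edgeR adjusted p = 0.015).

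Of 12 genes in the list of NPR1, EDS1 and PAD4 type salicylic acid regulators, 2 fell and none rose with edgeR. Both are matched to NPR5, which in Arabidopsis is BLADE-ON-PETIOLE2, a factor of organ boundaries and inflorescence form. Zm00004b017790 was counted at 710, 876 and 1272 reads in the B46 pools against 289, 240 and 260 in the A12 pools (log2 ratio -1.79 with SE 0.21, adjusted p by edgeR 0.0049). Zm00004b027539 was counted at 298, 311 and 350 reads in the B46 pools against 104, 91 and 103 in the A12 pools (log2 ratio -1.62 with SE 0.13, adjusted p by edgeR 0.0012). In both, every A12 library lay below every B46 library.

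Pathogenesis-related proteins, thaumatins and chitinases had 2 rises and 2 falls among 25 tested. Zm00004b007217, an MLP-like protein, fell by 1.02 on the log2 scale (SE 0.20, adjusted p by edgeR 0.024), and the thaumatin-like gene Zm00004b034053 rose by 0.56 (SE 0.12, adjusted p by edgeR 0.032). Calmodulin-binding protein 60 genes, regulators of defence transcription, had 2 rises among 10 tested. Zm00004b001297 was counted at 5, 11 and 7 reads in the B46 pools against 110, 63 and 60 in the A12 pools (log2 ratio 3.39 with SE 0.42, adjusted p by edgeR 0.0052), and Zm00004b033828 rose by 2.08 (SE 0.33, adjusted p by edgeR 0.012). Both were highest in A12 replicate 1, as were 9 of the 10 tested within that line. Of 6 diterpenoid enzymes, 0 were called by edgeR or DESeq2 and 2 had an unadjusted p under 0.05. Of 8 genes with the phenylalanine ammonia-lyase domain, some of which are annotated as tRNA ligases, 0 were called by either tool and 0 had an unadjusted p under 0.05.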

How the data were processed

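Polyadenylated RNA was measured in 3 pooled ear libraries of each line, grouped by title. The table deposited by the authors holds whole, unscaled read counts, and a further table deposited by the authors holds FPKM. The submitters' processing notes list HISAT2 2.0.5 and DESeq2 1.20.0. Genome build, read counter and strand: not given in the sources used here. Coordinates follow the count table, and reads of overlapping genes cannot be told apart. None of the 8 called genes overlapped another listed gene.

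The count test ran in edgeR 4.0.16 under R 4.3.3: default expression filter (22741 genes kept), TMM scaling, quasi-likelihood F-test without covariates, two-sided, Benjamini-Hochberg adjustment over all genes tested. Called means an adjusted p under 0.05. SE is the size of the log2 fold change (log2 ratio, A12 over B46) divided by the root of F. Alternatives used DESeq2 1.42.0, limma 3.58.1 on log2(FPKM + 0.1) and log2(FPKM + 1), RLE scaling, other filters, the replicate number as a block and each library left out. The procedure was tested on simulated data with the same spread setting for all genes and no library set apart. That test does not cover libraries that stand apart from the others of their line, as here. All per-sample columns were used.

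The members, lists and tests were chosen with earlier results of these data known. Genes named are all called members, the 8 of highest mean FPKM, members in the chromosome 5 blocks, those with a mean of at least 50 reads in 1 line and at most 3 reads in the other (0 found), the 3 largest uncalled differences in each direction with a mean of at least 50 reads in the higher line, and up to 2 called genes per list. Others are named as copies, neighbours or members of a set described, and were chosen after their values were seen. Lists were matched by Pfam domain or Swiss-Prot name. The labels name no molecular identifiers, and limits from counts cover counting error only.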

Additional observations from a re-analysis of the deposited data

How the results depend on the processing

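Of the 8 calls, 3 were kept in all 15 alternatives. DESeq2 called 15 of 75 WRKY genes, 9 of them lower, and 3511 genes in all. RLE scaling and the stricter filter of at least 20 reads in 3 libraries called the same 8. The analyses that left out a single library gave 3 to 11 WRKY calls, with 2 to 7 higher and 1 to 4 lower, a median log2 ratio from -0.15 (without B46 replicate 1) to -0.04, and 401 to 4446 calls over all genes. Without B46 replicate 3 and A12 replicate 1 together, a choice made after seeing the data, there were 19 WRKY calls, 11 higher and 8 lower, among 7048 in all, and all of the first 8 were among the 19. The cause of these shifts was not tested. Alternatives were followed gene by gene for 20 named genes only, and among the 12 of these that edgeR did not call, signs turned for 4. Over the analyses leaving out 1 library, the log2 ratio of Zm00004b007182 ran from -0.10 to 0.34 (-0.00073 for the set lacking A12 replicate 1) and that of Zm00004b007779 from -0.14 to 0.01. That of Zm00004b026293 ran from -0.53 to 1.39 and that of Zm00004b030457 from -0.19 to 1.49. With both libraries left out, the first was -0.22 and Zm00004b026293 was -0.21. The call of Zm00004b038592 was also lost with limma on log2(FPKM + 0.1) and no filter (adjusted p = 0.069).

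The replicate numbers showed no clear pairing of the samples. The deviations of same-numbered libraries from their line's mean correlated at -0.12, -0.0136 and 0.00541 across genes. A library of the other line with another number correlated better in each case. Deviations within a line sum to 0, so this was largely fixed in advance where the same-numbered value was below 0. With the replicate number as a block, edgeR called 967 genes (4.25%) and 6 WRKY genes, 3 of them higher, all among the 8; Zm00004b006387 and Zm00004b006731 missed the threshold. The 66 WRKY genes that did not pass the default filter have no value in the edgeR test reported. With every gene with a read kept, edgeR tested 104 WRKY genes and called 9, the first 8 among them.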
